A study of Mus musculus with 11 samples.

Results

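The Dlk1-Dio3 cluster is an imprinted region of mouse chromosome 12, described here through all probe sets whose platform symbol is Dlk1, Meg3, Rian, Mirg or Dio3. These were 19 of the 45101 probe sets of an Affymetrix mouse expression array, and they measured 4 of the 5 genes. Meg3 had 11 of them, Rian 4, Mirg 2 and Dlk1 2, while Dio3 had 0, and so had Rtl1, another protein-coding gene of the cluster. Pluripotent cells reprogrammed from ventricular myocytes (ViPSC) and from fibroblasts of the tail tip (TiPSC) were each measured on 3 arrays, as were embryonic stem cells of matching genetics (mESC). Their sources, the myocytes (VM) and the fibroblasts (TTF), were taken from pups at postnatal day 1 and had 1 array each, so they have no replicates. The mice were a mix of C57/Bl and BlackSwiss. The pluripotent cells were cultured with serum and LIF on irradiated embryonic fibroblasts, most of which a differential plating step before RNA extraction was meant to take away. How the induced cells were reprogrammed, and from how many clones the arrays came, is not given in the sources used here.

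As background, parental imprinting splits this cluster into RNAs read from the maternal chromosome (Meg3, Rian and Mirg, all noncoding) and proteins read from the paternal one (Dlk1, Rtl1 and Dio3). A differentially methylated region between Dlk1 and Meg3 controls both sides, and the maternal RNAs carry many small nucleolar RNAs and microRNAs. In some mouse induced pluripotent lines the maternal RNAs are known to be silenced, and such lines are known to contribute poorly to chimaeras.

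In the RefSeq annotation of GRCm38.p6 the members lay in this order on chromosome 12: Dlk1 from 109452485 to 109463336, Meg3 from 109540996 to 109571729, Rian from 109603945 to 109661716, Mirg from 109734981 to 109749458 and Dio3 from 110279230 to 110281097. The RefSeq sequences around the annotated starts of the 3 maternal RNAs are shown because these RNAs carried the differences reported here. Each window runs from 250 bases before to 50 bases after the start, on the plus strand. They are chr12:109540746-109541045 for the first of the Meg3 starts, chr12:109603695-109603994 for Rian and chr12:109734731-109735030 for Mirg. Capitals mark matches on either strand to 3 motifs that were searched by their letters: TGACGTCA, the cAMP response element, TATAAA, the TATA box, and TGCCGC, the core recognised by ZFP57, the zinc finger protein that protects methylated imprints.
Meg3: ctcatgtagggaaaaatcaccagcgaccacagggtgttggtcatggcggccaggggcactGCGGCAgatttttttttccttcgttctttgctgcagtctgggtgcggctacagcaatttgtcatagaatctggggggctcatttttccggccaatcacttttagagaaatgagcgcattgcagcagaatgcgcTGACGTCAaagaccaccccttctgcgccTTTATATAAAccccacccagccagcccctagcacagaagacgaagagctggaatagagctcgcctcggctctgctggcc
Rian: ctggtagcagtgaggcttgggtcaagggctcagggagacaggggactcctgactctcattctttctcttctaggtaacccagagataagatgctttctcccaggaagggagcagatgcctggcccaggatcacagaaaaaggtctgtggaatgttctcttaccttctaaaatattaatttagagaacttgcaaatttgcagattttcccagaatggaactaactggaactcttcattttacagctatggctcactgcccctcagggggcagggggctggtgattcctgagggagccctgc
Mirg: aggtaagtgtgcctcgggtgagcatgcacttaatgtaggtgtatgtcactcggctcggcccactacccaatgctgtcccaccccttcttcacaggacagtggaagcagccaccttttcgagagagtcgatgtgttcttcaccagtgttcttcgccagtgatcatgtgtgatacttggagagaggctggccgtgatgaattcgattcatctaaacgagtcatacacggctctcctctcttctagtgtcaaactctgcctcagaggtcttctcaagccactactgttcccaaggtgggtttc
The Meg3 window held TGACGTCA at 57 bases before the start, a motif found in 1.79% of 32851 such windows. It also held TATAAA matches that overlap each other at 29 and 25 bases before the start (13.6% of windows) and 1 TGCCGC match at 190 bases before it (11.6%). No match to these letters stood in the Rian or Mirg window. The Meg3 window had 13 CpG dinucleotides, that of Mirg 10 and that of Rian 0, against a median of 7 over all windows. These matches describe the letters of the reference and were not measured in the cells.

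The span of Mirg also holds 10 microRNA hairpins, and 58 lie between Dlk1 and Dio3 in the RefSeq table. Of the 19 mature sequences in the span of Mirg, 6 are shown as examples of what this host RNA carries. They lie on the plus strand between chr12 positions 109735669 and 109743784, and capitals mark the seed, bases 2 to 8.
mmu-miR-453: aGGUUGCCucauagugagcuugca
mmu-miR-496a-5p: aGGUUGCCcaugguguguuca
mmu-miR-377-3p: aUCACACAaaggcaacuuuugu
mmu-miR-409-3p: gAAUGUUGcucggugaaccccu
mmu-miR-369-3p: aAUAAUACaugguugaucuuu
mmu-miR-410-3p: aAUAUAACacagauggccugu
The first pair share the seed GGUUGCC, and each of the other seeds shown occurs once in this span. The array measured the host RNAs and not the mature microRNAs.

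The maternal RNAs were lower in both kinds of induced cells than in mESC, and no member was called between the induced cells of the 2 origins. In ViPSC, the probe sets of Meg3, Rian and Mirg that passed the test differed from mESC by -3.58 to -2.58 log2 units. In TiPSC those that passed differed from mESC by -3.59 to -2.54 log2 units. Dlk1 was low in every pluripotent array and did not pass the test in any comparison. All values are log2 expression values from RMA, and a difference was called at an adjusted p under 0.05 over the 45037 probe sets tested with limma. RMA compresses differences near background and no detection calls were used, so a difference from a group at or below the array medians (4.67 to 4.77) may understate the change in RNA. Mirg 1457030_at, Rian 1427580_a_at and both Dlk1 probe sets were at or near that level in the induced cells and are not shown to be above background there. The same holds for Mirg 1440097_at, Rian 1440001_at and 1428055_at. It also holds for Meg3 1436713_s_at, 1452906_at, 1429257_at, 1428764_at, 1428765_at and 1429256_at. In such bulk RNA, fewer cells that hold a transcript and less RNA per cell cannot be told apart.

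**Figure D1:**
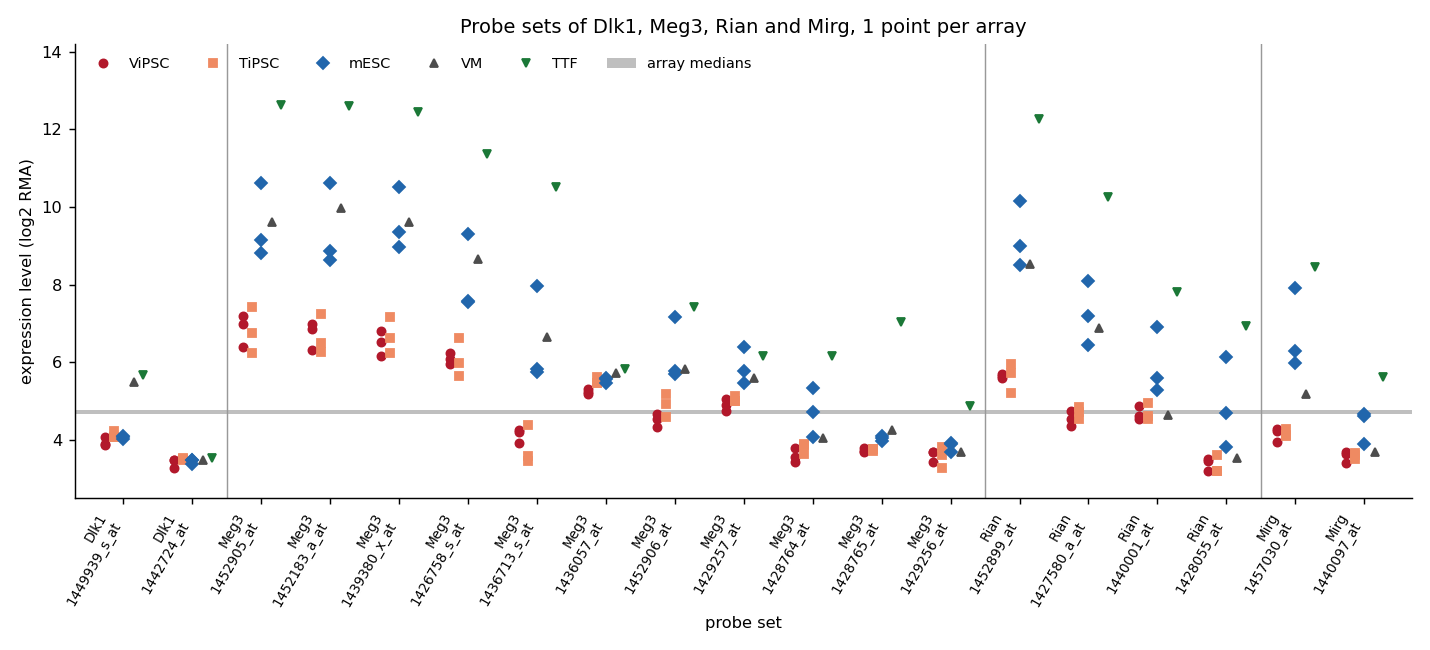
Levels of the 19 probe sets of the cluster, 1 point per array, in log2 RMA units on the vertical axis, with probe sets along the horizontal axis in gene order and the groups left to right as ViPSC, TiPSC, mESC, VM and TTF. The grey band spans the median levels of the 11 arrays (4.67 to 4.77); for the brightest Meg3 and Rian probe sets the 6 induced arrays lie below the 3 mESC arrays and TTF is highest.

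Meg3 is the maternally expressed long noncoding RNA nearest to Dlk1. Its probe set with the highest mean, 1452905_at, had 6.38, 7.20 and 6.98 in the ViPSC arrays, 7.41, 6.76 and 6.24 in the TiPSC arrays and 10.61, 9.16 and 8.80 in the mESC arrays. The induced arrays of both origins covered the same range, and every mESC array lay above all of them. Means were 6.85 ± 0.42 in ViPSC, 6.81 ± 0.59 in TiPSC and 9.52 ± 0.96 in mESC (SD, n = 3 each). ViPSC fell by 2.67 ± 0.45 log2 units (SE, limma adjusted p = 0.0311) against mESC. The TiPSC difference was of like size, -2.72 ± 0.45, but missed the threshold (adjusted p = 0.0592).

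A further Meg3 probe set, 1439380_x_at, passed in both comparisons. It had 6.17, 6.79 and 6.53 in ViPSC, 7.16, 6.63 and 6.24 in TiPSC and 10.51, 8.97 and 9.35 in mESC. Its suffix marks probes that may match other transcripts as well. The differences from mESC were -3.11 ± 0.37 for ViPSC (adjusted p = 0.0116) and -2.93 ± 0.37 for TiPSC (adjusted p = 0.0240). Probe set 1452183_a_at fell by 2.66 ± 0.47 in ViPSC (adjusted p = 0.0363), and its TiPSC difference was -2.71 ± 0.47 (adjusted p = 0.0663).

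The Meg3 probe sets did not all move alike. Probe set 1436713_s_at had 3.92, 4.25 and 4.21 in ViPSC, 4.37, 3.46 and 3.59 in TiPSC and 7.96, 5.81 and 5.76 in mESC, with no overlap, yet its differences of -2.38 ± 0.52 and -2.70 ± 0.52 did not pass (adjusted p = 0.0640 and 0.0825). Its SD in mESC was 1.26, the widest of any member in that group. Its induced arrays all lay below the array medians, so its differences may understate the change in RNA. Probe set 1436057_at was nearly flat, at 5.19 to 5.31 in ViPSC, 5.47 to 5.62 in TiPSC, 5.47 to 5.60 in mESC, 5.71 in VM and 5.82 in TTF. The other 6 Meg3 probe sets differed from mESC by between -2.05 and -0.23 in ViPSC and between -2.06 and -0.27 in TiPSC, none past the threshold. All of these but 1426758_s_at were at or near the array medians in the induced cells, which limits what their sizes show. Which part of the transcript each probe set reads was not used here, and levels of different probe sets are not set against each other.

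Rian, also called Meg8, is the noncoding RNA that hosts C/D box small nucleolar RNAs. Its probe set 1452899_at had 5.69, 5.63 and 5.58 in ViPSC, 5.94, 5.72 and 5.20 in TiPSC and 10.16, 8.49 and 8.99 in mESC. The lowest mESC array stood well clear of the highest induced array. This gave the largest differences of any member, -3.58 ± 0.36 for ViPSC (adjusted p = 0.00575) and -3.59 ± 0.36 for TiPSC (adjusted p = 0.00937). The ViPSC arrays were close together (SD 0.05), the TiPSC arrays less so (SD 0.38) and the mESC arrays least (SD 0.85). On this probe set the mESC level was 11.9-fold that of ViPSC and 12.1-fold that of TiPSC.

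Probe set 1427580_a_at of Rian also passed in both comparisons, at -2.69 ± 0.33 for ViPSC (adjusted p = 0.0126) and -2.54 ± 0.33 for TiPSC (adjusted p = 0.0272). It had 4.36, 4.75 and 4.55 in ViPSC, 4.73, 4.84 and 4.54 in TiPSC and 8.10, 6.43 and 7.19 in mESC. Rian 1440001_at and 1428055_at had mean differences of -1.54 to -1.22 log2 units in the 2 comparisons, without overlap, and did not pass (adjusted p between 0.125 and 0.188). Both were at or near the array medians in the induced cells, so these sizes may understate the change in RNA.

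Mirg, the microRNA-containing RNA whose microRNAs are printed above, had 4.28, 4.23 and 3.94 on 1457030_at in ViPSC, 4.27, 4.09 and 4.13 in TiPSC and 7.91, 6.28 and 5.99 in mESC. All 6 induced arrays lay below the array medians, so their narrow band may be the floor of the scale, and all mESC arrays lay above it. Mirg fell by 2.58 ± 0.40 in ViPSC (adjusted p = 0.0236) and by 2.56 ± 0.40 in TiPSC (adjusted p = 0.0496), sizes that hold for these values and may understate the change in RNA. The other probe set, 1440097_at, differed by -0.81 ± 0.19 and -0.79 ± 0.19 and did not pass (adjusted p = 0.0788 and 0.127).

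Dlk1 is a paternally expressed transmembrane protein related to the Notch ligands. Its probe set 1449939_s_at had 3.87, 3.90 and 4.06 in ViPSC, 4.06, 4.22 and 4.06 in TiPSC and 4.02, 4.06 and 4.09 in mESC, against 5.49 in VM and 5.66 in TTF. The pluripotent groups overlapped. Its differences from mESC were -0.11 (95% interval -0.31 to 0.08) in ViPSC and 0.06 (-0.13 to 0.25) in TiPSC. The other Dlk1 probe set, 1442724_at, lay between 3.28 and 3.53 in all 11 arrays. No statement can be made for Dio3, the deiodinase that inactivates thyroid hormone, which has no probe set under its own symbol.

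Over all members, 6 of 19 probe sets were called in ViPSC against mESC, all 6 lower, where 1.22% of all probe sets were called in either direction and 0.373% were called lower. In TiPSC against mESC 4 of 19 were called, all 4 lower, where 0.213% of all probe sets were called and 0.115% were called lower. The median member difference was -1.49 for ViPSC and -1.32 for TiPSC, beside -0.01 and 0.01 over all probe sets. In the group means, 8 members were lower by at least 2 log2 units in ViPSC, among 18 such probe sets on the whole array (0.0400%), and 8 in TiPSC, among 37 (0.0822%). In each comparison these 8 were 5 probe sets of Meg3, 2 of Rian and 1 of Mirg. Member counts thus hold repeated readings of few RNAs and are not counts of independent members. At an unadjusted p under 0.05 there were 16 members for ViPSC (14.6% of all probe sets) and 15 for TiPSC (14.7%). All ViPSC arrays lay below all mESC arrays for 16 members (9.29% of all probe sets) and all TiPSC arrays for 15 (6.24%). Both comparisons use the same mESC arrays. The 6 induced arrays together lay below the 3 mESC arrays for 15 of the 17 maternal probe sets, against 1.64% of all probe sets.

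**Figure D2:**
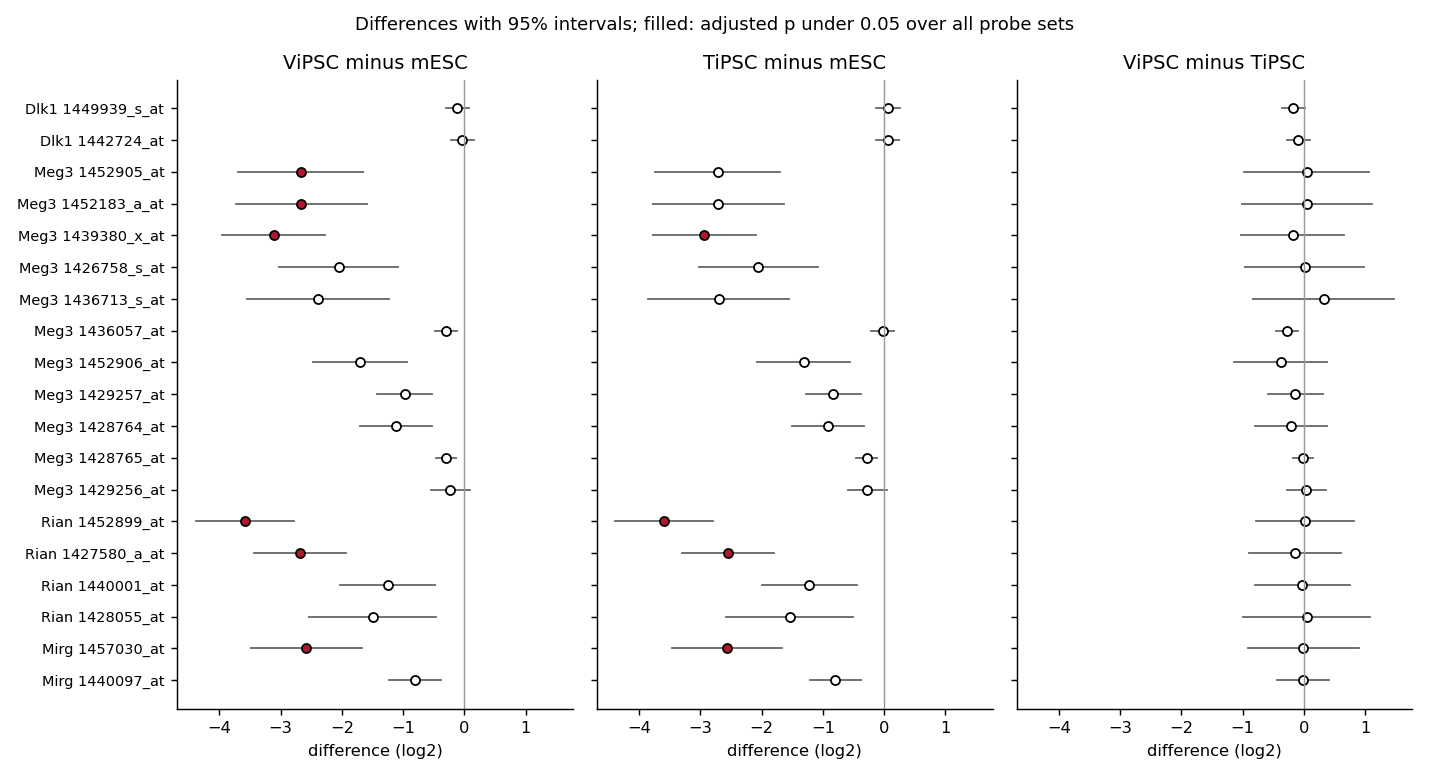
Log2 differences of the 19 probe sets with 95% intervals from limma, 1 panel per comparison; a filled point marks an adjusted p under 0.05. There are 6 filled points in ViPSC minus mESC, 4 in TiPSC minus mESC and 0 in ViPSC minus TiPSC, where the points lie between -0.38 and 0.32.

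The called counts depended on single arrays. Without ViPSC 1, 2 or 3 in turn, the ViPSC comparison gave 1, 0 and 1 calls, and the TiPSC comparison gave 1 each time. Without TiPSC 1, 2 or 3, the counts were 3, 4 and 6 for ViPSC and 1, 0 and 1 for TiPSC. Without mESC 1, 12 members were called in each comparison, without mESC 2, 4 in each, and without mESC 3, 13 for ViPSC and 4 for TiPSC. The share of all probe sets called in each refit is not given here. These counts therefore do not separate a change in the cluster from one over the whole array. The 0 calls without ViPSC 2 and without TiPSC 2 stood beside 16 members at an unadjusted limma p under 0.05 in each case. Across all alternatives the called probe sets kept their direction, at -3.94 to -1.99 for ViPSC and -3.95 to -1.97 for TiPSC.

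Between the 2 kinds of induced cells, 0 of 19 members were called by limma, where 3.91% of all probe sets were called, and 1 member, Meg3 1436057_at, had an unadjusted p under 0.05, as 18.0% of all probe sets had (-0.28 ± 0.08, adjusted p = 0.106). For Meg3 1452905_at the difference of ViPSC minus TiPSC was 0.05 (95% interval -0.97 to 1.07). For Rian 1452899_at it was 0.02 (-0.79 to 0.82). Both groups were below the array medians on Mirg 1457030_at, so its difference sets no bound on the RNA. The intervals of Meg3 1452905_at and Rian 1452899_at leave room for differences of up to about 1 log2 unit in either direction. Over all Meg3 probe sets the intervals reach -1.15 and 1.48. The data therefore do not show that the levels are equal.

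The mESC arrays themselves spread widely, with mESC 1 the highest of the 9 pluripotent arrays for 15 of the 17 maternal probe sets. The share of all probe sets highest in mESC 1 is not given here. This array also stood apart in markers of extraembryonic endoderm, an 18-gene list that was drawn up after the data had been seen. The mean log2 level of that list was 6.40 to 6.45 in ViPSC, 6.29 to 6.39 in TiPSC and 7.75 in mESC 1, against 6.30 in mESC 2 and 6.26 in mESC 3; it was 8.39 in VM and 6.64 in TTF. Of its 18 genes, 11 were at 7 or higher in mESC 1, and 5 and 7 in mESC 2 and mESC 3. The list's median difference from mESC was -0.23 in ViPSC and -0.32 in TiPSC, with 1 gene called lower in each comparison. Over all probe sets, 0.373% were called lower for ViPSC and 0.115% for TiPSC. Gata6, a transcription factor of primitive endoderm, was at 7.01 in mESC 1 and at 4.09 and 3.89 in mESC 2 and mESC 3. Cubn, the endocytic receptor cubilin, was at 8.63 in mESC 1 and at 3.27 and 3.34 in the other mESC arrays. Whether mESC 1 held cells of extraembryonic endoderm was not tested, nor was any part of such cells in its higher cluster RNAs. Without mESC 1, Rian 1452899_at differed by -3.11 in ViPSC and -3.12 in TiPSC (adjusted p = 2.30e-04 and 1.94e-04), and Meg3 1452905_at by -2.13 and -2.17 (adjusted p = 0.00580 and 0.00499).

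Markers of fibroblasts and feeders, 20 genes that include Col1a1, Dcn and Thy1, had a mean log2 level of 6.79 to 6.94 in ViPSC, 6.98 to 7.53 in TiPSC and 6.61 to 6.96 in mESC, against 9.05 in VM and 12.52 in TTF. Of the 20, 0 were called by limma in any comparison. Over all probe sets, 0.213% were called in TiPSC against mESC, 1.22% in ViPSC against mESC and 3.91% in ViPSC against TiPSC. A count of 0 among 20 genes is therefore no result about them. At an unadjusted limma p under 0.05 there were 13 in TiPSC against mESC (14.7% of all probe sets). There was 1 in ViPSC against mESC (14.6%), and there were 8 in ViPSC against TiPSC (18.0%). The list's median difference from mESC was 0.09 in ViPSC and 0.41 in TiPSC. Fn1, fibronectin, was their most abundant member in all 9 pluripotent arrays. TiPSC 1 had the highest list mean of the pluripotent arrays (7.53) and also the highest Meg3 1452905_at among the induced arrays (7.41), and whether feeder RNA adds to that value was not tested. The 8 pluripotency markers, among them Pou5f1 and Nanog, averaged between 12 and 12.4 in every pluripotent array, against 4.29 in VM and 4.16 in TTF.

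**Figure D3:**
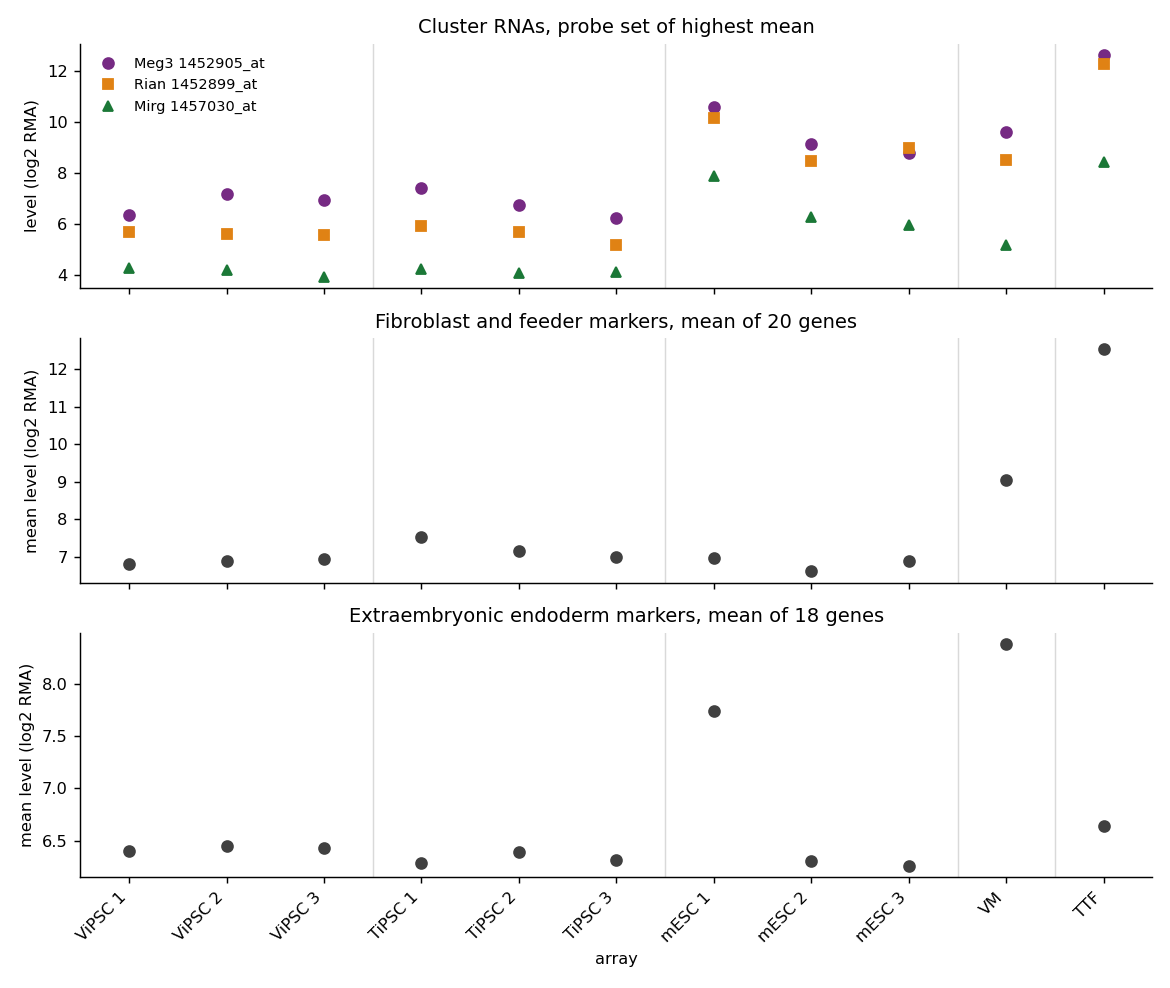
Log2 levels per array of Meg3, Rian and Mirg (top, the probe set of highest mean for each), the mean of 20 fibroblast and feeder markers (middle) and the mean of 18 extraembryonic endoderm markers (bottom), with the 11 arrays along the horizontal axis. mESC 1 is the highest pluripotent array for all 3 RNAs and has an endoderm mean of 7.75, while the feeder means of the 9 pluripotent arrays lie between 6.61 and 7.53.

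On their probe sets of highest mean, Meg3 and Rian stood well above the array medians in both source arrays, and Mirg did so in TTF. In VM, Mirg 1440097_at (3.68), Rian 1440001_at (4.65) and Rian 1428055_at (3.53) lay below the array medians. TTF was the highest of the 11 arrays for 17 of 19 members, and the share of all probe sets highest in TTF is not given here. Meg3 1452905_at was at 9.62 in VM and 12.64 in TTF, Rian 1452899_at at 8.52 and 12.27, and Mirg 1457030_at at 5.19 and 8.45. VM lay at least 2 log2 units below TTF for 12 members, 7 of Meg3, 4 of Rian and 1 of Mirg, where 3.26% of all probe sets did. The VM array was labelled as cardiomyocytes and its 10 cardiomyocyte markers averaged 13.10, yet it also carried endothelial markers at a mean of 10.29 and the fibroblast markers at 9.05. Their part in its cluster RNAs was not tested.

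Against their own source cells, which with 1 array allow no test, all 3 ViPSC arrays lay lower by 2 log2 units or more for 7 members (4.86% of all probe sets) and all 3 TiPSC arrays did for 13 (4.45%). Rian 1452899_at was 7.41-fold lower in ViPSC than in VM and 100.5-fold lower in TiPSC than in TTF. Meg3 1452905_at was 6.78-fold lower in ViPSC than in VM and 57.0-fold lower in TiPSC than in TTF. The VM minus TTF difference was -3.02 log2 units for this Meg3 probe set and -3.75 for this Rian probe set, larger than any difference between the induced cells. Dlk1 1449939_s_at averaged 3.94 in ViPSC against 5.49 in VM, and 4.12 in TiPSC against 5.66 in TTF. The induced values lie below the array medians, so the size of the change in RNA is not given by them.

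The mESC arrays lay around the VM level for most members. For 11 of the 19 members the VM value lay within the range of the 3 mESC arrays, for 5 below it and for 3 above it. The matching shares of all probe sets are not given here. Of the members, 0 were 2 log2 units or more below VM on every mESC array (4.46% of all probe sets, no test), and 6 were that far below TTF (4.27%). Mirg 1457030_at was higher in all mESC arrays (5.99 to 7.91) than in VM (5.19).

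Of the 10 measured genes on each side of the cluster, 0 were called by limma in any of the 3 comparisons. Over all probe sets, 1.22% were called in ViPSC against mESC, 0.213% in TiPSC against mESC and 3.91% in ViPSC against TiPSC. A count of 0 among 20 genes is therefore no result about them. At an unadjusted limma p under 0.05 there was 1 in ViPSC against mESC, 2 in TiPSC against mESC and 1 in ViPSC against TiPSC. The matching shares of all probe sets were 14.6%, 14.7% and 18.0%. The median difference of these genes was -0.04 for ViPSC minus mESC, 0.04 for TiPSC minus mESC and -0.12 for ViPSC minus TiPSC. Several of them, such as Degs2 and Eml1 (means of 3.57 and 3.80 in ViPSC), lay below the array medians, where a change in RNA may not show. The nearest measured gene before Dlk1 was Wdr25, at 5.64 in ViPSC, 5.78 in TiPSC and 5.54 in mESC (means). The nearest after Dio3 was Ppp2r5c, a regulatory subunit of protein phosphatase 2A, at 10.36, 10.46 and 10.45 in the same groups. Expressed genes of chromosome 12 as a whole (275 genes) had medians of 0.00 for ViPSC minus mESC and 0.08 for TiPSC minus mESC. Within the cluster, Dio3os, the RNA antisense to Dio3, averaged 4.15 in ViPSC, 4.12 in TiPSC and 4.16 in mESC, against 4.38 in VM and 5.18 in TTF, and was not called. Its pluripotent means lay below the array medians, so a change in its RNA may not show.

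**Figure D4:**
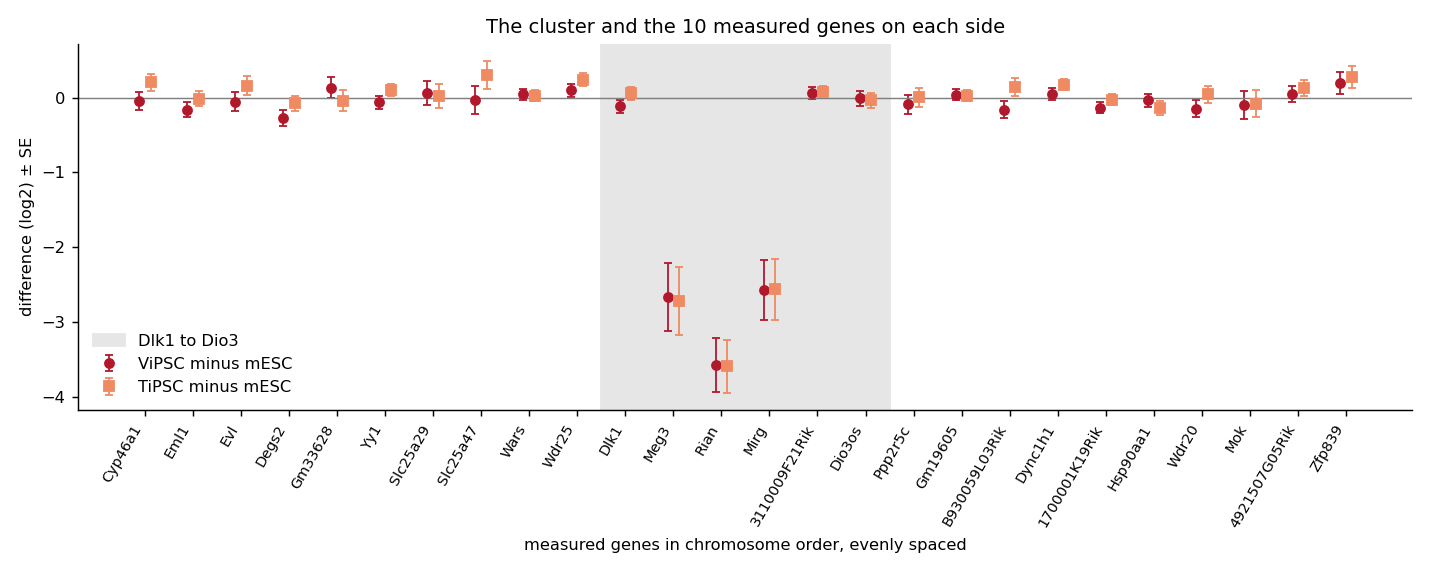
Log2 differences from mESC (points, with SE bars) of ViPSC and TiPSC for the measured genes of the cluster and the 10 measured genes on each side, in chromosome order and evenly spaced. Meg3, Rian and Mirg lie between -3.59 and -2.56, and Dlk1, Dio3os and the 20 neighbours lie near 0.

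Genes that act on imprints were also listed. Of 19 measured genes for imprint maintenance and DNA methylation, 0 were called by limma against mESC in either kind of induced cell (3 at an unadjusted p under 0.05 in each), where 1.22% of all probe sets were called for ViPSC and 0.213% for TiPSC, and 1 was called between them: the de novo DNA methyltransferase Dnmt3a was higher in ViPSC than in TiPSC by 0.91 ± 0.20 (9.13 and 8.22, adjusted p = 0.0404), where 3.91% of all probe sets were called. These counts are near those of the whole array and are no result about the list. Of 11 measured maternally expressed imprinted genes elsewhere in the genome, Ascl2, a trophoblast transcription factor, was called higher in ViPSC, by 0.58 against mESC (adjusted p = 0.0387) and by 1.01 against TiPSC (adjusted p = 0.00289), and 0 were called by limma in TiPSC against mESC (4 at an unadjusted p under 0.05).

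Of 20 measured paternally expressed imprinted genes elsewhere, 1 was called in ViPSC against mESC and 2 in TiPSC against mESC, all higher. Over all probe sets, 1.22% and 0.213% were called in these comparisons, in either direction. Igf2, the fetal growth factor, was higher in ViPSC by 1.90 (adjusted p = 0.0175). Mest was higher in TiPSC by 1.30 (adjusted p = 0.0161) and Magel2 by 0.74 (adjusted p = 0.0487). Between ViPSC and TiPSC, 2 genes were called higher in ViPSC, Igf2 and Slc38a4, and 3 lower, among them Mest and Magel2. In that comparison 3.91% of all probe sets were called, in either direction. At an unadjusted p under 0.05 there were 5 of 20 for ViPSC against mESC and 10 of 20 for TiPSC against mESC, in both directions, where 14.6% and 14.7% of all probe sets were.

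Genes tied to the protein-coding members were counted in the same way. Of 22 measured genes of the Notch pathway and Dlk1 targets, 0 were called by limma against mESC. At an unadjusted p under 0.05 there were 5 for ViPSC and 8 for TiPSC, where 14.6% and 14.7% of all probe sets were. Hes1, a transcriptional repressor induced by Notch, was lower by 0.64 ± 0.11 in ViPSC than in TiPSC (limma adjusted p = 0.0182). It was the 1 gene of 22 called there, near the 3.91% of all probe sets called, and is no result about the list. Of 11 measured genes of thyroid hormone handling, the pathway in which Dio3 acts, 0 were called by limma in any comparison, with at most 1 at an unadjusted p under 0.05. With 1.22% and 0.213% of all probe sets called against mESC and 3.91% between the induced cells, counts of 0 in these lists are no result about them.

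By Pearson correlation over the 9 pluripotent arrays, the genes most like Meg3 1452905_at were Amn (0.952), Ly6e (0.950), Efcab7 (0.949), Cap1 (0.904) and Bcat2 (0.903). Those most like Rian 1452899_at were Amn (0.976), Efcab7 (0.973), Ipp (0.945), Npl (0.923) and Cap1 (0.920), and those most like Mirg 1457030_at were Amn (0.976), Cap1 (0.971), Efcab7 (0.963), Timmdc1 (0.919) and Npl (0.919). These values describe mainly the gap between the 3 mESC arrays and the 6 induced arrays and, for all but Ipp, the height of mESC 1. The 9 arrays give them little precision. For Ipp, mESC 1 was the lowest mESC array (9.95, against 10.63 and 10.64), and the differences from mESC were -4.43 in ViPSC and -4.56 in TiPSC. Amn, the partner of cubilin in endocytosis, lies 990 kb beyond Dio3 and belongs to the endoderm list above. It had 6.25, 6.35 and 6.20 in ViPSC, 6.31, 6.10 and 6.23 in TiPSC and 8.03, 6.98 and 7.39 in mESC, so that all mESC arrays lay above the induced ones. It fell by 1.20 in ViPSC against mESC (adjusted p = 0.0363), and its TiPSC difference was -1.25 (adjusted p = 0.0625).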

How the data were processed

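Affymetrix mouse arrays measured total RNA in 11 samples. The authors deposited log2 values, which they computed with RMA, per the submitters' processing notes. RMA normalizes between arrays and compresses differences near background; its version and software are not given in the sources used here, and no detection calls were used. The array totals carry no depth, and the number of arrays limits the precision. Gene symbols came from the platform annotation, positions and sequences from RefSeq (GRCm38.p6).

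All 45101 probe sets except 64 controls were fitted in R 4.3.3 by limma 3.58.1 (lmFit and eBayes), where the 9 pluripotent arrays had a mean for each group. Benjamini-Hochberg adjustment ran over 45037 probe sets, and p-values are two-sided. The labels do not say whether replicates were separate cultures, so p-values reflect only the spread among these arrays, which may be technical. Source cells had 1 array each and no test. The fit was tested on simulated data.

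The members and gene lists were chosen with earlier results of these data known. Named were all member probe sets, up to 4 called genes of each pathway list and comparison with the smallest adjusted p, and marker lists as lists. For each member with a range of at least 1 log2 unit, the 5 genes most like it by correlation were named. Gata6, Cubn, Hnf4a, Afp, Sparc, Wdr25, Ppp2r5c and Dio3os were added after their values were seen. Lists used 1 probe set a gene, that of highest mean, from 18193 genes; 932 probe sets with several symbols and 9160 without one belong to no list. The 17 alternatives per comparison changed normalization, filters, the model, the samples fitted or left out 1 array.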

Additional observations from a re-analysis of the deposited data

How the results depend on the processing

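In ViPSC against mESC, 6 members were called, and the count became 3 with 1 probe set a gene (of 4 member genes fitted), 2 with only the 6 arrays compared, 13 with array weights and 0 to 13 when 1 array was left out. In TiPSC against mESC, 4 were called, against 0 with only the 6 arrays compared (15 at an unadjusted limma p under 0.05), 9 with array weights, 1 with the replicate number as a replicate block and 0 to 12 with 1 array left out. In ViPSC against TiPSC, 0 were called, against 1 with array weights and 0 in each fit without 1 array. The share of all probe sets called in each of these fits is not given here, and the causes were not tested. Same-numbered arrays did not deviate together (correlations of deviations between -0.262 and 0.067), so the numbers were not taken to pair the samples. With so few arrays this check cannot exclude pairing, and the labels do not settle it. The replicate block gave 0, 4 and 1 calls in ViPSC minus TiPSC, ViPSC minus mESC and TiPSC minus mESC. The called differences from mESC kept their direction in 99 of 99 refitted values for ViPSC, 69 of them still called, and in 66 of 66 for TiPSC, 37 still called. The sign of ViPSC minus TiPSC turned in 36 of 300 values, by at most 0.234 log2 units in size. Rian 1452899_at went to -0.0274 after a further quantile normalization, -0.10 with array weights and -0.20 to 0.18 with 1 array left out. Mirg 1457030_at went to 0.00113 after a further quantile normalization and -0.0759 to 0.0925 with 1 array left out, and Meg3 1452905_at to -0.11 with array weights and -0.23 to 0.35 with 1 array left out. With 1 array left out, Dlk1 1442724_at in ViPSC minus mESC ranged over -0.0680 to 0.0313 and Meg3 1436057_at in TiPSC minus mESC over -0.0758 to 0.00195.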
